A study of Mus musculus with 8 samples.

Results

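The nuclei described here are 510 of 8708 nuclei, 5.86% (5.37 to 6.37, 95% exact binomial interval, which covers counting error only), and carried high counts of the stem cell genes Hlf and Mecom with little sign of lineage commitment or mitosis. They were chosen on raw counts of unique molecular identifiers (UMIs, each standing for 1 captured RNA molecule). A nucleus had to hold at least 3 UMIs of Hlf and at least 5 of Mecom, none of Vwf or Car1, at most 1 of Top2a, Dntt or Itga2b, and at most 2 of Mpo. Nuclei that met all 8 conditions are called gated nuclei. Because these counts chose the nuclei, the levels of the 8 genes are given as a description and support nothing.

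The nuclei came from bone marrow cells of mice sorted as lineage-negative, Sca1-positive and ckit-positive (LSK), a fraction that holds hematopoietic stem cells together with multipotent progenitors. The labels name 4 groups of 2 samples: RNA and chromatin accessibility of WT mice, and RNA and chromatin accessibility of littermates carrying the MYC T58A mutation. Each sample pooled LSK cells of 2 mice, and neither age nor zygosity is given in the sources used here. The RNA counts of all nuclei stand in 1 table that is named for T58A alone, and its barcodes carry a suffix from 1 to 4. Those suffixes make 4 barcode sets that no label ties to a genotype or replicate, so the table was treated as 1 sample, no p-value was computed, and WT was not compared with T58A.

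Hematopoietic stem cells sustain blood formation for life and divide rarely. HLF and MECOM are transcription factors that maintain them, and their RNA falls as cells become multipotent progenitors. Entry into cycle draws on MYC, whose level is held down by phosphorylation of threonine 58 and the FBXW7 ubiquitin ligase, while MXD proteins compete with MYC for its partner MAX.

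Gated nuclei made up 94 of 2999 nuclei in barcode set 1, or 3.13% (2.54 to 3.82). Set 2 held 67 of 721, or 9.29% (7.27 to 11.7), set 3 held 125 of 2756, or 4.54% (3.79 to 5.38), and set 4 held 224 of 2232, or 10.04% (8.82 to 11.4). Sets 1 and 3 thus lay below sets 2 and 4, with intervals that did not overlap between those pairs. Depth moved with the share: median UMIs per nucleus outside the gate were 3022, 6947.5, 3649 and 6197 in sets 1 to 4, against 3437, 4768, 3492 and 4607 in gated nuclei. Mitochondrially encoded genes took 18.4%, 8.85%, 18.8% and 7.16% of the UMIs of gated nuclei and 24.8%, 10.05%, 24.5% and 9.39% of those of all other nuclei. Their part in the share of gated nuclei was not tested.

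A gate on raw counts also depends on the depth of each nucleus. Among nuclei with fewer than 2000 UMIs, 1.29% were gated. The share was 9.83% between 3000 and 4000 UMIs, the highest of the 7 depth classes, and 2.57% at 12000 UMIs or more. The minimums on Hlf and Mecom were met by 1.38% of the shallowest and 40.9% of the deepest class, and the 6 upper limits by 75.5% and 2.75%. Both minimums were met by 1277 nuclei, of which 767 failed 1 or more of the upper limits.

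**Figure D1:**
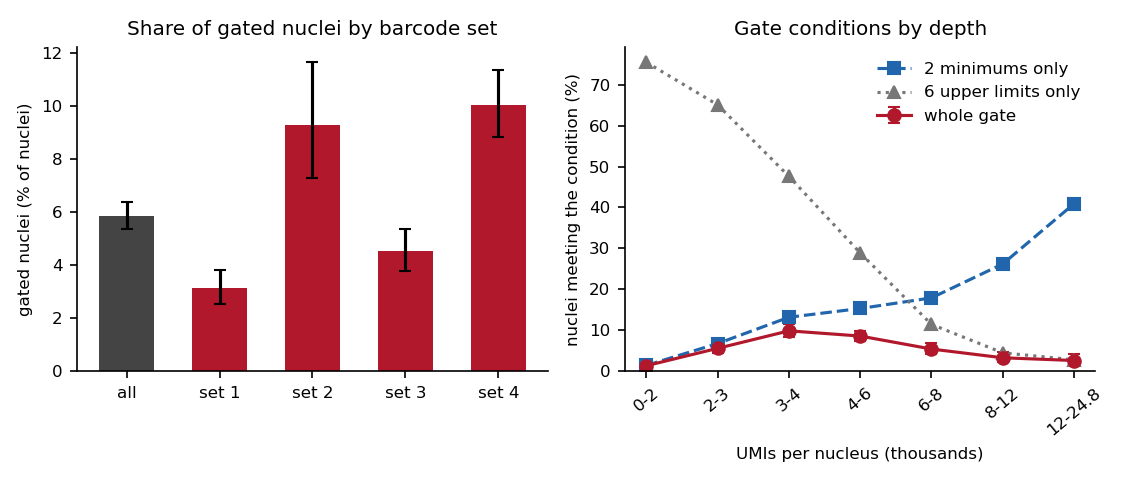
Left, gated nuclei as a percentage of all nuclei in the whole table and in each barcode set, with 95% exact binomial intervals, from 3.13% in set 1 to 10.04% in set 4. Right, percentage of nuclei in each class of UMIs per nucleus that met the whole gate (circles with 95% intervals), the 2 minimums (squares) and the 6 upper limits (triangles), with the gated share highest between 3000 and 4000 UMIs.

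Gated nuclei held a median of 5 Hlf UMIs (range 3 to 29) and 9 Mecom UMIs (5 to 50). Hlf reached 1414 CPM (UMIs scaled to a total of 1000000) against 259 in all other nuclei, and Mecom 2488 against 693 CPM. Of the 510 nuclei, 389 had no Top2a UMI, 356 no Mpo, 465 no Dntt and 452 no Itga2b. At the edge of the gate, 104 nuclei with exactly 3 Hlf UMIs held 2086 CPM of Meis1 and 626 of Mllt3. The 133 nuclei just outside, with 2 Hlf UMIs and every other condition met, held 2060 and 563 CPM. Procr stood at 19.3 CPM inside and 15.9 outside, but Fgd5 at 50.6 inside and 55.5 outside. Cdk6 stood at 1055 CPM just inside and 1380 just outside. At the Mecom edge, 49 nuclei with exactly 5 Mecom UMIs were set beside 72 with 4. Fgd5 held 29.8 CPM inside and 55.4 outside, and Procr 11.9 on both sides. Meis1 held 1980 and 1892 CPM there, and Mllt3 519 and 447. Not all markers were thus higher just inside the gate.

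Everything else was described against 3 references. The first was all 8198 other nuclei. The second, called quiet nuclei, was the 2820 nuclei that met the 6 upper limits but not both minimums (median 2541 UMIs). The third, called cycling neighbours, was the 266 nuclei that failed the Top2a limit alone (median 7304.5 UMIs). The 3 comparisons share the gated nuclei, and the first contains the other references, so they are not independent. A call, higher or lower, needed a 1.5-fold ratio of CPM + 10 and one direction in each of the 4 barcode sets. It describes these libraries and tests nothing. Printed folds are ratios of CPM without the added 10, with 95% exact binomial intervals of counting error.

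Against all other nuclei, 755 of 10506 measured genes (7.19%) were called higher in gated nuclei and 518 (4.93%) lower, the gate's own 8 genes left out. These shares are the background for each later count of list members against all other nuclei. With mitochondrially encoded UMIs left out of the totals the split was 626 higher and 669 lower. The median over all measured genes was 0.08 on the log2 scale, and 0.01 without mitochondrial UMIs. Genes called higher were long, with a median span of 61.3 kb against 27.0 kb over all measured genes and 27.6 kb for genes called lower. The part of gene length, and of the mitochondrial share given above, in these calls was not tested.

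The 4 marker genes that the gate did not use were all called higher, though without set 4 Procr fell below the count minimum. Procr, which encodes the endothelial protein C receptor used to sort stem cells, stood at 22.5, 41.3, 17.4 and 20.7 CPM in gated nuclei of sets 1 to 4 and at 4.55, 6.09, 4.33 and 5.88 CPM in the other nuclei. Every gated value lay above every other value, and the pooled levels of 23.3 and 5.13 CPM were 4.55-fold apart (3.34 to 6.11, from 57 gated UMIs). Fgd5, an exchange factor for CDC42 whose locus has been used to mark stem cells, held 56.3, 102, 40.7 and 71.9 CPM against 11.0, 13.5, 15.6 and 25.4 CPM. That is 3.86-fold (3.24 to 4.57), again without overlap.

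Mllt3, a chromatin reader that sustains stem cell identity, held 732, 870, 612 and 732 CPM in gated nuclei. The other nuclei held 273, 299, 307 and 372 CPM, for a ratio of 2.28 (2.17 to 2.39). Meis1, a homeobox partner of HOX proteins, was 2.05-fold higher (1.99 to 2.11), at 1785 to 2581 CPM across sets against 876 to 1345 CPM. All 6 markers of the stem cell label were thus higher, 2 of them by the gate itself. At an equal depth of 2000 UMIs per nucleus, a Procr UMI was seen in 5.86% of 495 gated nuclei, 1.15% of 7053 other nuclei and 1.89% of 1959 quiet nuclei. For Fgd5 these shares were 12.5%, 3.71% and 5.31%. Thinning left out 15 gated, 1145 other and 861 quiet nuclei under that depth.

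Free RNA gives UMIs in nuclei that do not express a gene, so 380 nuclei with 3 or more Car1 UMIs and a UMI of Klf1 or Ermap (median 9847.5 UMIs against 4173 in the gated nuclei kept) served as a reference of erythroid character. There Procr was seen in 0.263%, Fgd5 in 0.526% and Prdm16 in 2.37% of nuclei at equal depth. These lay below the gated shares of 5.86%, 12.5% and 34.5%. Mllt3 was seen in 54.2% of the erythroid nuclei and 64.6% of gated nuclei, so its detection separated them little. The erythroid nuclei were deeper and pooled over barcode sets, so their shares do not measure free RNA in gated nuclei. An Igkc UMI, for example, was seen at equal depth in 59.1% of other nuclei in set 3 and 5.10% in set 4.

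**Figure D2:**
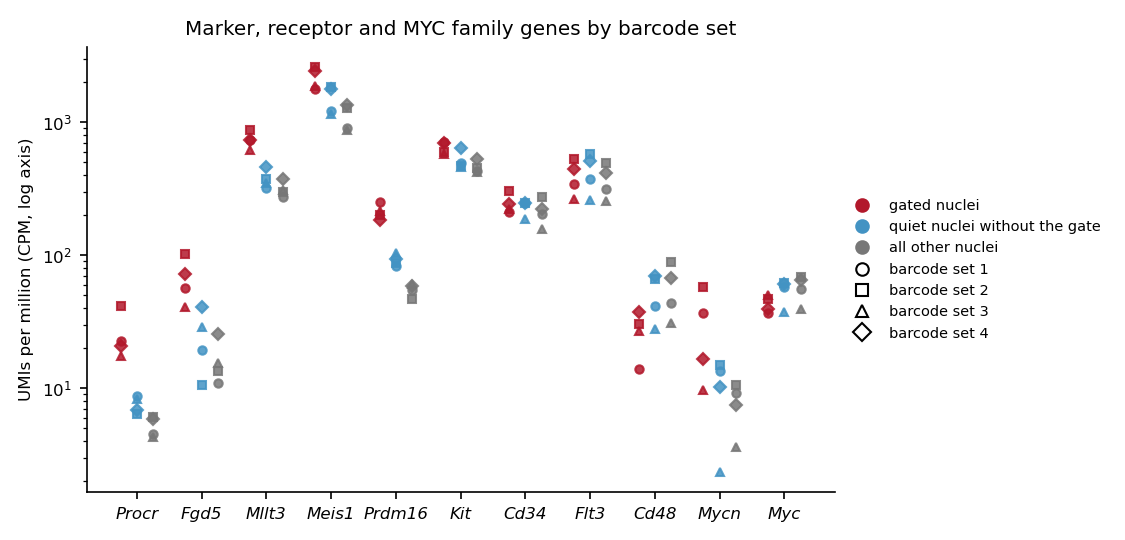
Level in CPM (log axis) of 11 genes in gated nuclei, quiet nuclei and all other nuclei, with a symbol for each barcode set. Procr, Fgd5, Mllt3, Prdm16 and Mycn stood higher in gated nuclei of all 4 sets, Kit, Cd34 and Flt3 lay close together, and Cd48 was lower than in all other nuclei.

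Surface molecules that sort stem cells from progenitors followed several patterns. Of 29 listed, 23 were measured, 10 were called higher and 1 lower, with a median of 0.53 on the log2 scale. The shares over all measured genes were 7.19% higher and 4.93% lower. Emcn, a sialomucin, held 45.0, 113, 52.3 and 92.5 CPM in gated nuclei and 16.1, 37.4, 15.8 and 43.6 CPM in the others, 2.87-fold higher (2.45 to 3.33). The gated and other sets did not overlap. Robo4, a guidance receptor that anchors stem cells in marrow, was 2.83-fold higher (2.14 to 3.69). Ly6a, which encodes Sca1, and the adhesion molecule Esam were 2.94-fold and 2.62-fold higher at only 22.1 and 20.0 CPM. The drug transporter Abcg2 of the side population was 1.75-fold higher, the TGF-beta coreceptor Eng 1.74-fold, the integrin Itga2 2.61-fold and Alcam 1.69-fold, the last not called with depth matching. Procr, described above, was also among those called.

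The classical boundary genes between stem cells and multipotent progenitors separated less. Flt3, the receptor that marks lymphoid-primed multipotent progenitors, stood at 341, 526, 263 and 445 CPM in gated nuclei and 312, 491, 255 and 413 CPM in the others. It was not called, at 404 against 352 CPM (1.15-fold, 1.07 to 1.22). That pooled ratio was larger than the ratio within any set. The sets weigh differently in it, with 224 of 510 gated and 2008 of 8198 other nuclei in set 4. A Flt3 UMI was seen in 43.2% of gated and 38.5% of other nuclei at equal depth. In the erythroid nuclei that share was 6.05%. Cd34 at 243 against 206 CPM and Kit at 658 against 462 CPM were not called. Slamf1, which encodes CD150, had 27 gated UMIs and a ratio of 1.23 (0.80 to 1.82), so a difference was not detectable at this depth. Cd48, which is absent from the surface of stem cells, was the gene called lower, at 30.7 against 53.7 CPM (0.57-fold, 0.45 to 0.72). That call was lost without set 2.

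Transcription and chromatin factors of stem cells came next. Of 41 listed, 33 were measured, 16 were called higher and none lower, with a median of 0.56, against 7.19% higher over all measured genes. Under the other weightings and without each barcode set in turn, 14 to 18 were called higher. Klf12, a zinc finger repressor, held 135, 391, 198 and 285 CPM in gated nuclei against 38.7, 75.8, 49.6 and 77.1 CPM, a 4.39-fold difference (4.02 to 4.79). Prdm16, which maintains stem cells and their mitochondria, held 251, 201, 215 and 184 CPM against 54.8, 46.7, 60.9 and 58.8 CPM, or 3.57-fold (3.23 to 3.93). The gated sets did not overlap with the others for either gene. The nuclear receptor gene Rora was 3.55-fold higher (3.31 to 3.8). Of the HOX genes, Hoxa9 stood at 199 against 92.7 CPM, Hoxb3 at 33.1 against 13.4 and Hoxb4 at 26.6 against 13.1, each called. Lmo2, Msi2, Erg and Zbtb20 were called higher as well, while Runx1 at 1839 against 1854 CPM, Gata2 and Fli1 were not.

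Genes with an expected count of 30 or more were ranked by the ratio of CPM + 10, with the gate genes and predicted or mitochondrial genes left out. Ncam2, a neural cell adhesion gene, came first. It held 50.7, 138, 96.8 and 93.4 CPM in gated nuclei and 9.91, 6.09, 13.7 and 17.9 CPM in the others, a 7.15-fold difference (6.11 to 8.34). Lhcgr, the receptor of luteinizing hormone and further down that ranking, stood at 70.4 against 12.7 CPM (5.54-fold, 4.64 to 6.58). Il1rapl2, of the interleukin-1 receptor family, held 321, 107, 362 and 141 CPM against 51.9, 16.0, 63.4 and 24.1 CPM. Its level was higher in sets 1 and 3 of both kinds of nuclei, and in each set the gated nuclei stood above the others, at 5.06-fold pooled (4.58 to 5.59).

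The other genes among the 15 ranked highest were Abcg3, B3galt1, Nkx2-3, Palld, Hacd4, Prex2, Mamdc2, Samd12 and Itsn1, at ratios from 3.33 for the endocytic scaffold Itsn1 to 4.51 for the transporter-family gene Abcg3. B3galt1, a galactosyltransferase gene, ranged from 24.8 CPM in set 4 to 209 CPM in set 3 of the gated nuclei. Palld, which organises actin, varied little, from 130 to 196 CPM. Of 35 listed genes known from synapses, adhesion and axon guidance, 23 were measured, 13 were called higher and 1 lower, with a median of 1.13, and 13 or 14 were called under each other weighting and left-out set. Dlg2, which encodes a synaptic scaffold, and Plxdc2 were 2.95-fold and 3.13-fold higher, and the semaphorin coreceptor gene Nrp1 was the member called lower, at 4.09 against 17.4 CPM. This list was written with earlier results of these data in view, so its count is no independent evidence.

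**Figure D3:**
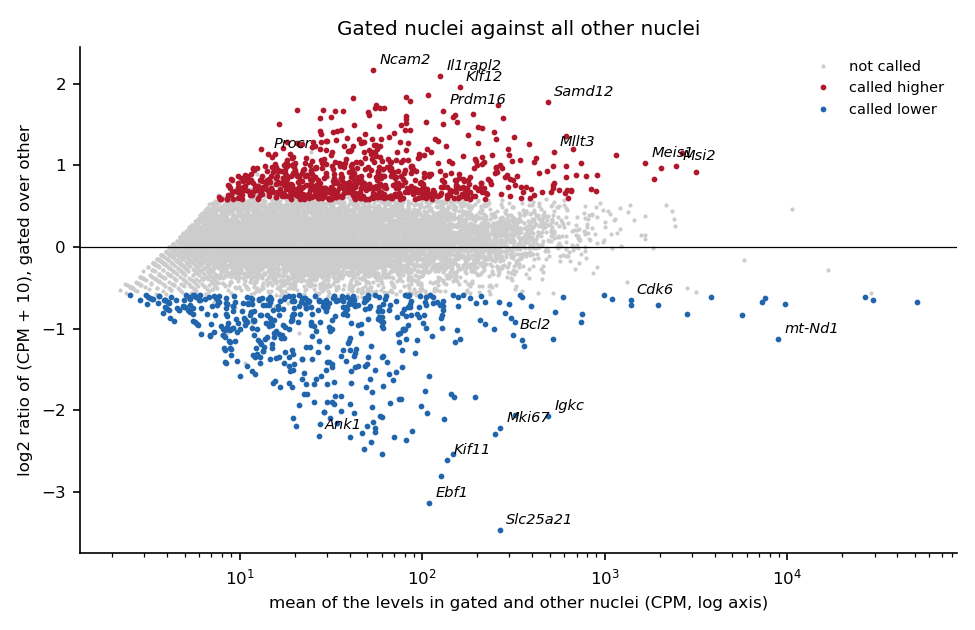
Log2 ratio of CPM + 10, gated over all other nuclei, against the mean of both levels (log axis) for each measured gene outside the gate. Red points are the 755 genes called higher and blue points the 518 called lower, with Ncam2 at the top and Slc25a21 and Ebf1 at the bottom.

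Genes called lower were led by those of other lineages and of mitosis. Slc25a21, a mitochondrial carrier gene on the erythroid marker list, stood at 35.6 against 497 CPM, 14.0-fold lower (11.3 to 17.4). Ebf1, which commits cells to the B lineage, held 11.3, 5.51, 19.4 and 15.7 CPM in gated nuclei against 156, 142, 216 and 255 CPM. It was 14.3-fold lower (10.3 to 20.5). The red cell ankyrin Ank1 was 21.2-fold lower from 6 gated UMIs (9.70 to 57.7), the monocyte gene F13a1 11.4-fold (7.30 to 19.0), the granule protease Ctsg 11.2-fold (6.90 to 19.6) and the sialic acid hydroxylase gene Cmah 9.62-fold (6.45 to 15). Rab44 and the immunoglobulin genes Igha and Ighm were also among the 15 with the lowest ratios.

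The remaining members of those 15 act in dividing cells: the motors Kif15, Kif11 and Kif4, the kinetochore genes Knl1 and Bub1, and the DNA glycosylase Neil3. Kif15 stood at 24.1 against 230 CPM and Kif11 at 31.1 against 242 CPM. The gate's limit on Top2a selects against such genes, so their direction is a description of the gate. Of 40 listed G2/M genes, 39 were measured and 39 were called lower, with a median of -1.80. Of 40 S phase genes, 26 were called lower and none higher (median -0.77), led by E2f8 at 5.32 against 52.5 CPM and Fancd2 at 10.6 against 54.9 CPM.

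The name non-cycling rests on the Top2a limit alone. At 2000 UMIs, 47.9% of gated nuclei still showed UMIs of 2 or more G2/M genes, against 76.4% of other nuclei, 52.4% of quiet nuclei and 89.1% of cycling neighbours. Without thinning the gated and other shares were 76.5% and 82.4%. The median number of G2/M genes seen was 1 in gated nuclei, 4 in the others, 2 in quiet nuclei and 8 in cycling neighbours. For 2 or more S phase genes the shares were 70.3%, 86.6%, 72.7% and 94.7%. Several of these genes have a level in nuclei outside mitosis, and no phase was called.

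Among 25 measured regulators of quiescence and G1, 4 were called higher and 4 lower, against 7.19% and 4.93% over all measured genes. Cdk6, the kinase that shortens the exit of stem cells from quiescence, held 1053, 881, 823 and 1250.1 CPM in gated nuclei against 1497, 2007, 1373 and 1989 CPM, or 0.64-fold. Cyclin D3 was higher, with Ccnd3 at 296, 540, 341 and 444 CPM against 142, 235, 148 and 227 CPM (2.26-fold, 2.11 to 2.41). For both genes the gated and other sets did not overlap. Cdk6 was also called lower than in cycling neighbours, but not than in quiet nuclei. E2f2 had 5 gated UMIs and was 13.8-fold lower (5.90 to 42.6), and E2f1 and Ccne2 were called lower too. Btg1, Txnip and Ptpn21 were called higher. The inhibitors Cdkn1b at 56.4 against 52.8 CPM and Cdkn1a at 5.32 against 12 CPM were not called, and Cdkn1c at 2.45 CPM was below the count minimum.

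The MYC network was examined because the series concerns MYC. Of 26 listed genes, 23 were measured, 2 were called higher and 1 lower, shares near the 7.19% and 4.93% of all measured genes, and the sign of their median depended on the weighting. The values of its members are therefore given one by one. Myc itself held 36.6, 46.8, 50.4 and 39.7 CPM in gated nuclei and 55.3, 68.0, 39.2 and 65.7 CPM in the others. It was lower in sets 1, 2 and 4 and higher in set 3, so it was not called (0.76-fold pooled, 0.62 to 0.93). Its paralog Mycn held 36.6, 57.8, 9.68 and 16.5 CPM in gated nuclei against 9.28, 10.5, 3.59 and 7.52 CPM. Mycn was thus 3.34-fold higher (2.48 to 4.42, from 59 gated UMIs) and higher within each set, although set 3 of the gated nuclei lay below set 2 of the others. A Mycn UMI was seen at equal depth in 5.45% of gated, 1.53% of other and 1.53% of quiet nuclei, and in 0 of 380 erythroid nuclei.

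Mxd4, which encodes a MAX partner that opposes MYC, held 56.3, 55.1, 40.7 and 70.2 CPM against 31.9, 37.8, 32.8 and 38.9 CPM, 1.69-fold higher (1.42 to 2.01). Every gated set lay above every other set, but the call was lost with non-mitochondrial totals, with sets weighted equally, with the other nuclei matched on depth, or without set 4. Without set 4, Mycn fell just below the count minimum, with a log2 ratio of 1.28 against 0.99 over all sets. Aurka, a mitotic kinase that stabilises MYCN, was called lower from 6 gated UMIs. Genes of MYC turnover lay near a ratio of 1: Fbxw7 at 197 against 210 CPM, Gsk3b at 242 against 224, Huwe1 at 669 against 660 and Usp28 at 40.9 against 34.8. Max stood at 65.9 against 63.8 CPM, and Mga, Mnt, Mxi1 and Mxd1 were 1.17-fold to 1.27-fold higher without a call.

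The promoters of Mxd4 and Mycn are shown because these were the network members called higher, a count near the background share, and the E-box, the site bound by MYC and MAX dimers and by MXD and MAX dimers, is a feature a reader would look for. Both are RefSeq windows of 300 bases on GRCm38.p6, from 250 bases before to 50 after the start of the gene. They lie on the minus strand and are printed 5′ to 3′ in lower case with the letters CACGTG in capitals.
Mxd4 (chr5:34187661-34187960): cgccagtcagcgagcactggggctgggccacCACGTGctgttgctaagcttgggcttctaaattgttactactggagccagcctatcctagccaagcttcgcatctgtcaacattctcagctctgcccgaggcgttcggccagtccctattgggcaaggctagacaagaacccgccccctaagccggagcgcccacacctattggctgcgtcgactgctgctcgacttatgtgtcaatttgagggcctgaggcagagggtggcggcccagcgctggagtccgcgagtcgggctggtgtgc
Mycn (chr12:12941787-12942086): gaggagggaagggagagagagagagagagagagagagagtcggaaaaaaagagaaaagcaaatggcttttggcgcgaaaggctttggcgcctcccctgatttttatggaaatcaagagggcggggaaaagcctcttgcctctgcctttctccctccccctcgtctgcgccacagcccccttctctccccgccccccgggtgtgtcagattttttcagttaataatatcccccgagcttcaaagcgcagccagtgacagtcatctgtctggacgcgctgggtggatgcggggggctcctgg
The Mxd4 window held CACGTG once, starting at base 32, and the Mycn window did not hold it. The motif reads the same on both strands, and 2349 of 32851 promoter windows in the table (7.15%) contained it. Of 8329 measured genes with a promoter window, 1034 (12.4%) held it in at least 1 window. It was also present for the network members Max, Mlx, Mnt and Mlxipl, none of which was called. The HLF family letters TTACGTAA and TTATGTAA, searched on both strands, were in neither window, and stood in 0.119% and 0.938% of all windows. A match is a description of letters, and a missing match says only that the letters are not in that window. Promoters were at hand for 77.7% of genes called higher and 74.3% of those called lower, below 80%, so the comparison of motifs between the gene groups is void.

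Of 54 measured MYC targets, 1 was called higher, the phosphatase gene Dusp2, and 5 lower: Mcm4, Mcm5, Plk1, Plk4 and Cad, the enzyme of pyrimidine synthesis. The first 4 of those act in replication or mitosis. Over all measured genes, 7.19% were called higher and 4.93% lower. The list's median was -0.21. None of 26 ribosome biogenesis genes (median -0.20) and none of 58 cytosolic ribosomal protein genes was called, and the sign of the latter's median changed with the weighting of sets. Of 18 glycolysis genes, only the glucose transporter Slc2a3 was called, at 130 against 79.2 CPM, and that call was lost with non-mitochondrial totals, with depth matching and without set 2. Of 13 mitochondrially encoded genes, 9 were called lower with a pooled median of -0.62, but the 4 sets gave only -0.44, -0.19, -0.39 and -0.39. With sets weighted equally 1 was called, and the same number with depth matching, against 2 without set 4.

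Of 39 listed interferon response genes, 32 were measured, 14 were called higher and none lower, against 7.19% higher over all measured genes. The median was 0.66 pooled, and 0.25, 0.72, 0.54 and 0.57 in sets 1 to 4. The RNA sensor Ddx58 held 81.6, 96.4, 42.6 and 81.8 CPM against 27.9, 42.2, 19.3 and 37.4 CPM, and Ddx60 held 121, 251, 103 and 150 CPM against 52.2, 72.5, 39.6 and 78.3 CPM. In every set the gated value was the higher. Ifi44, Xaf1, Rtp4, Iigp1, Samd9l and Trim30a were each more than 2-fold higher, while Stat2 and Irf9 were not called, and Irf7 and Isg15 were below the count minimum. With other nuclei matched on depth, 9 were called.

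Immediate early genes, which respond within minutes to stress, growth factors or tissue dissociation, showed 8 of 25 called higher and none lower (median 0.45). Over all measured genes the shares were 7.19% and 4.93%. Nr4a1 held 47.9, 33.1, 281 and 148 CPM in gated nuclei and 20.3, 15.3, 113 and 64.6 CPM in the others, so it differed more between sets than between gated and other nuclei within a set. Nr4a2, Egr1, Ier2, Zfp36, Dusp1, Dusp5 and Klf6 were the other members called. Fos, Fosb and Jun at 1.30-fold to 1.38-fold were not. The count was 4 with depth matching, 5 with non-mitochondrial totals and 11 without set 2. Of 16 measured NF-kB genes, 3 were called higher: Nfkbiz at 297 against 138 CPM, and the chemokine genes Ccl3 and Ccl4 at 45.0 against 20.6 and 51.5 against 26.2 CPM. With depth matching 1 was called, and without set 4 there were 5.

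**Figure D4:**
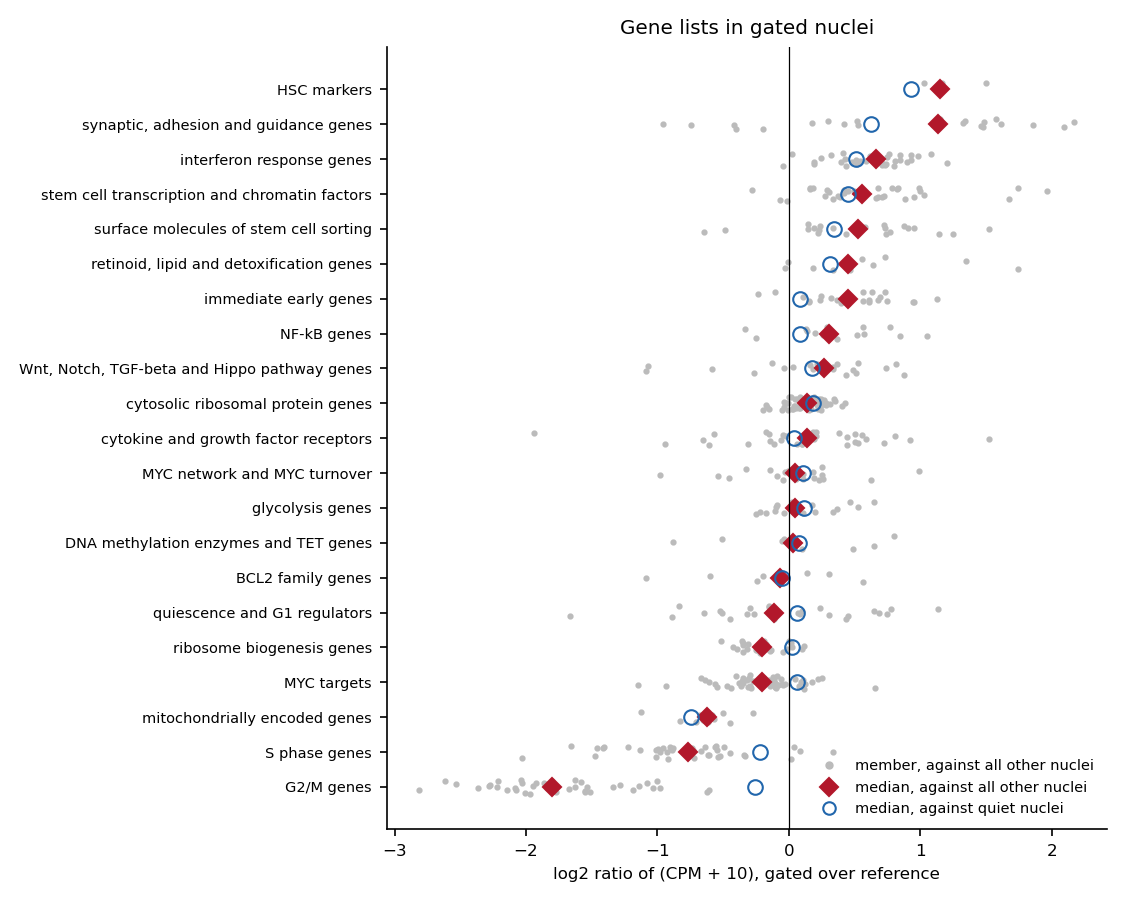
Log2 ratio of CPM + 10 for the measured members of 21 gene lists against all other nuclei (grey points), with the median of each list (red diamonds) and its median against quiet nuclei (blue circles). Medians are pooled over barcode sets. Synaptic, interferon and stem cell factor lists lie to the right against both references. The G2/M median moves from -1.80 against all other nuclei to -0.26 against quiet nuclei, where set 3 alone gave 0.13.

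Quiet nuclei met the same upper limits as the gated nuclei. Against them 445 of 10632 measured genes (4.19%) were called higher and 191 (1.8%) lower, or 287 and 258 with non-mitochondrial totals. The median of all genes was 0.16, and 0.07 with those totals. The quiet nuclei were not all progenitors: B and plasma cell markers summed to between 1091 and 9075 CPM in their 4 sets, against 118 to 784 CPM in gated nuclei, and monocyte and dendritic markers to 184 to 991 against 61.9 to 140 CPM. The part of those cells in the comparison was not tested. The genes with the lowest ratios were Igha at 16.4 against 483 CPM, Jchain at 43.4 against 851 CPM and Igkc at 182 against 2870 CPM. At equal depth an Igkc UMI was seen in 37.1%, 14.9%, 57.6% and 7.24% of gated nuclei in sets 1 to 4 and in 47.2%, 14.1%, 71.2% and 9.07% of quiet nuclei. These shares differed more between sets than between gated and quiet nuclei of a set.

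The stem cell genes kept smaller ratios against quiet nuclei. Procr was 2.89-fold higher (1.99 to 4.19), Fgd5 2.49-fold (2.02 to 3.06), Mllt3 1.99-fold (1.88 to 2.12) and Meis1 1.66-fold. Ranked by the ratio of CPM + 10 among named genes with 30 expected counts or more, Ncam2 at 4.90-fold (3.98 to 6.05), Klf12 at 2.87-fold (2.58 to 3.2) and Mamdc2 at 3.0-fold (2.58 to 3.48) came first. Mycn was 2.77-fold higher (1.93 to 3.98), at 13.6, 14.9, 2.34 and 10.3 CPM in the quiet nuclei of sets 1 to 4. Ccnd3 was 1.71-fold higher (1.58 to 1.84). The lower call of Cdk6 was lost against quiet nuclei. At equal depth a Cdk6 UMI was seen in 72.1% of gated, 76.3% of quiet and 84.8% of other nuclei.

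By groups, 13 of 36 measured stem cell factors were called higher than in quiet nuclei (7 with non-mitochondrial totals), and 12 of 24 synaptic and adhesion genes were called higher with 4 lower. The stem cell factor median was 0.45 pooled, and 0.50, 0.13, 0.57 and 0.21 in sets 1 to 4. Among interferon genes 8 of 32 were called higher, but 4 with non-mitochondrial totals, with equal weights or with depth matching. The interferon median was 0.51 pooled, and 0.12, 0.52, 0.29 and 0.24 in sets 1 to 4. Only 3 of 36 G2/M genes (Mki67, Kif15 and Ncapg) and 2 of 40 S phase genes (Clspn and E2f8) were called lower. Without set 3 the G2/M count was 10, and with depth matching 1. The G2/M median was -0.54, -0.31, 0.13 and -0.26 in sets 1 to 4. None of 25 immediate early genes was called higher, and Zfp36l1 was called lower. Nfkbia and Cd83 were the NF-kB genes called, both lower. Of the surface molecules, Procr, Eng, Abcg2, Robo4 and Emcn were among 6 called higher and Cd244a was called lower, with 3 higher under non-mitochondrial totals.

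Cycling neighbours shared the minimums on Hlf and Mecom and differed from gated nuclei by the Top2a limit. Of 10809 measured genes, 241 (2.23%) were called higher in gated nuclei and 383 (3.54%) lower, and the higher count was 499 without set 4 and 455 with depth matching. As the Top2a limit fixes, 37 of 39 G2/M genes and 26 of 40 S phase genes were called lower, led by Neil3 at 19.6 against 268 CPM, Kif15 at 24.1 against 295 CPM and Kif11 at 31.1 against 365 CPM. Among the genes ranked highest by the ratio of CPM + 10 were Ppp2r2b, a brain-rich phosphatase subunit, at 36.8 against 6.53 CPM (5.64-fold, 3.19 to 10.7), the transcription factor Npas3 at 30.3 against 6.06 CPM (4.99-fold, 2.75 to 9.82) and Ncam2 at 94.5 against 22.4 CPM (4.22-fold, 3.08 to 5.89). Ppp2r2b reached 105 CPM in set 3 and 10.7 to 39.4 CPM in the other sets.

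Of the markers, Procr at 2.38-fold (1.42 to 4.14) and Mllt3 at 1.55-fold (1.44 to 1.68) were called higher than in cycling neighbours, while Fgd5 at 1.61-fold and Meis1 at 1.18-fold were not. Mycn was 2.25-fold higher (1.37 to 3.82) and Mxd4 1.66-fold (1.25 to 2.22). Gsk3a, Skp2 and Aurka were called lower. Rora, Prdm16 and Klf12 were each called higher, at 1.69-fold to 2.28-fold. Igha, at 16.4 against 7.46 CPM, was called higher as well, the only call among 5 measured B and plasma cell markers. The sum of that list stood at 337 against 1061 CPM. It was higher in gated nuclei of sets 1, 2 and 3 and lower in set 4, at 118 against 1580 CPM.

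The summed markers of 10 other cell types had ranges over the barcode sets that lay below those of all other nuclei for some types. For others the ranges overlapped, which does not describe the difference within a set. Summed erythroid markers ranged from 8.26 to 121 CPM over the 4 sets against 248 to 1087 CPM in all other nuclei, and myeloid progenitor markers from 199.5 to 429.7 CPM against 476 to 1888 CPM. Lymphoid progenitor markers, 573 to 1063 against 819 to 1855 CPM, and megakaryocyte markers, 190.0 to 319.8 against 234 to 335 CPM, overlapped in range. Within each set the lymphoid sum was lower in gated nuclei, and 4 of 7 measured members were called lower. The megakaryocyte sum was lower in sets 2, 3 and 4 and higher in set 1. Neutrophil markers ranged from 0 to 228 against 3.56 to 259 CPM, mast cell and basophil markers from 9.68 to 19.3 against 46.5 to 74.7 CPM, and T and NK cell markers from 9.68 to 24.8 against 18.5 to 73.4 CPM. Endothelial and stromal markers ranged from 122 to 203 against 150 to 268 CPM. The neutrophil, mast cell and basophil, T and NK cell, and endothelial sums were each lower in gated nuclei within every set. Cebpe, Rag1, Gp1bb, Gp6, Ppbp, Cd3e, Gzma, Siglech, Cdh5, Cxcl12 and Lepr had no UMI in any gated nucleus, a count that allows up to 3 UMIs of 2444857. Many members of these lists were below the count minimum over all nuclei. Only 3 of 10 endothelial and stromal, 3 of 9 T and NK cell and 5 of 10 megakaryocyte genes outside the gate were measured. A lack of UMIs alone thus does not set the gated nuclei apart. The Car1, Vwf, Mpo, Dntt and Itga2b conditions remove part of these lineages by construction.

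The gated nuclei were not uniform. An index of dispersion compared each count with the count expected from that nucleus's depth and the gene's level in its barcode set. It is the sum of squared deviations over the sum of expected counts, and near 1 for pure counting noise. Among 4300 genes with a mean of 0.2 UMIs or more per gated nucleus, the median index was 1.21, and 195 genes reached 2. The highest index, 32.5, belonged to the predicted gene Gm42418. The mitochondrial genes mt-Atp6 at 10.6 and mt-Co3 at 9.63, Xist at 8.35 and Malat1 at 7.78 were also near the top. The cause of this spread was not tested. Ncam2 had an index of 10.3: 54 nuclei (10.6%) held all of its 231 UMIs, up to 34 in a nucleus, and the 51 nuclei with most held 98.7% of them. Those nuclei came from every barcode set, 7, 7, 15 and 25 of them in sets 1 to 4. Most gated nuclei thus held no Ncam2 UMI.

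Dach1, a transcriptional repressor gene, was seen in 86.1% of gated nuclei with up to 117 UMIs in a nucleus and an index of 13, from 2.64 in set 1 to 16.3 in set 4. Angpt1, which encodes a ligand of the TIE2 receptor, was seen in 98.6% with an index of 9.90. Il1rapl2 reached 6.08 and was seen in 129 nuclei, 30, 8, 50 and 41 in sets 1 to 4. Agbl4 was seen in 40 nuclei, 13 in set 1 and 27 in set 4, and in none of sets 2 and 3. Samd12, Prdm16 and Klf12 were seen in more nuclei than Ncam2, Il1rapl2 or Agbl4, with a UMI in 87.5%, 53.3% and 52.2% of gated nuclei.

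Gated nuclei were split by a Flt3 UMI at equal depth, a split chosen after its values were seen. At 2000 UMIs, 214 gated nuclei held a Flt3 UMI and 281 did not (median depth before thinning 4446.5 and 4003 UMIs). A nucleus without a Flt3 UMI may still express the gene. Before thinning, 318 of the 510 gated nuclei held one, so thinning removed the Flt3 UMIs of some of the 281. Of 5949 measured genes, 146 (2.45%) were called higher with Flt3 and 137 (2.3%) lower. Lhcgr stood at 45.5, 30.3, 50 and 23.1 CPM with Flt3 in sets 1 to 4 and at 107, 235, 109 and 53.1 CPM without, or 0.32-fold (0.17 to 0.59). Satb1, a chromatin organiser of lymphoid lineages, was the other way round, at 451 against 189 CPM, 2.39-fold higher (1.88 to 3.06). For Lhcgr the gated sets with and without Flt3 did not overlap, but the nearest values were 50 and 53.1 CPM. Its levels rest on 14 UMIs with Flt3 and 57 without.

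Rora at 287 against 585 CPM, B3galt1 at 46.7 against 135 CPM and Magi2 at 56.1 against 160 CPM were lower with Flt3. Hlf, Mecom, Procr, Fgd5, Meis1 and Mycn were not called in this split. Mllt3 at 614 against 881 CPM (0.70-fold, 0.60 to 0.81), Prdm16 at 175 against 265 CPM and Il1rapl2 at 143 against 340 CPM missed the rule, the last because its direction differed in set 4.

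**Figure D5:**
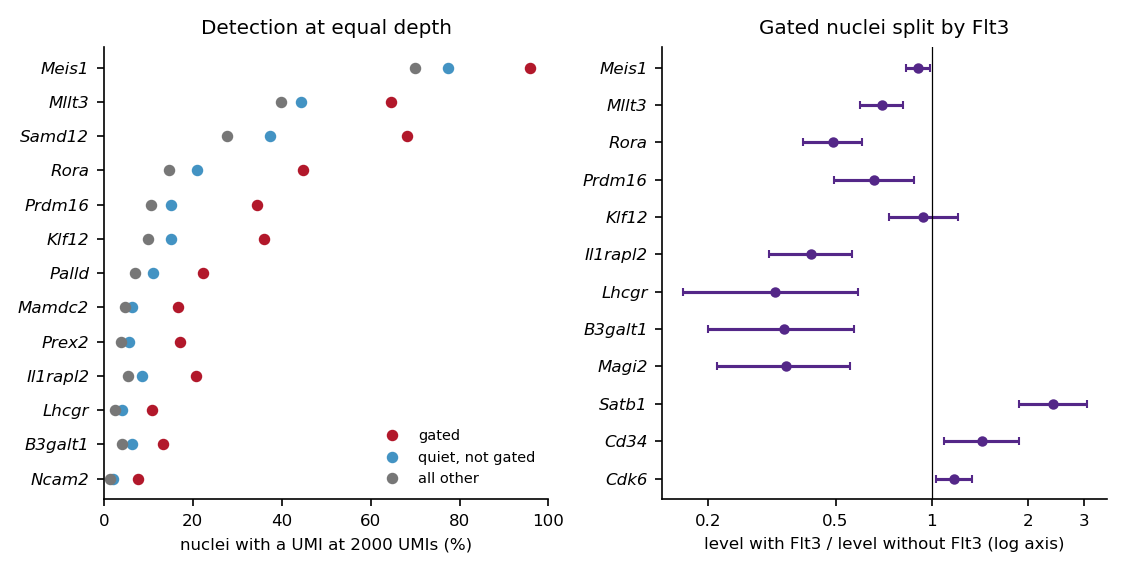
Left, percentage of nuclei with a UMI of each gene after thinning to 2000 UMIs in gated, quiet and all other nuclei, with Meis1 in most gated nuclei and Ncam2 in 7.68%. Right, level in gated nuclei with a Flt3 UMI after that thinning over the level in those without (log axis, 95% exact binomial intervals), with Rora near 0.5 and Satb1 at 2.39.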

How the data were processed

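UMI counts for 32285 genes in 8708 nuclei were used as deposited by the authors, without normalization. Cell Ranger ARC, Seurat, Signac and mm10 are named in the submitters' processing notes. Versions, annotation and filters on nuclei are not given in the sources used here. Chromatin accessibility was not analysed here. The table holds 0 further columns of per-sample values left unused. Of the barcodes, 36 occur in more than 1 set, and 1 gated nucleus has such a barcode. No doublets were called or removed.

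Counts were summed over nuclei and scaled to CPM with Python 3.11.15, numpy 2.4.6, scipy 1.17.1 and pandas 2.3.3. A gene was measured when at least 10 counts were expected in gated nuclei. Genes named are the markers, the 15 highest and 15 lowest called ratios with 30 expected counts or more (without mitochondrial, Gm and Rik genes), 2 per list of 31, all measured members of the MYC network and surface lists, and 3 each way against quiet nuclei and cycling neighbours. Some genes that this rule names are not reported here. Other genes in the text were picked with their values in view. The members and lists were chosen with earlier results of these data known. Scripts were tested on simulated data. Alternatives covered totals, weights, depth, count minimum, added CPM, fold and gate.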

Additional observations from a re-analysis of the deposited data

How the results depend on the processing

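No paired analysis was possible because no label ties a barcode set to a sample or replicate number, and the result comes from no test. For the same reason the tests planned for WT against T58A (edgeR or DESeq2 on sums per sample) were not run. The share of gated nuclei was 7.29% without barcode set 1, 6.47% without set 3 and 4.42% without set 4. It was 3.70% with minimums of 4 and 7 UMIs, 8.64% with 2 and 4, and 8.18% with minimums scaled to depth. Adding 1 CPM in place of 10 gave 1204 genes higher and 833 lower against all other nuclei, 881 and 356 against quiet nuclei, and 571 higher against cycling neighbours. A 2-fold limit gave 173 and 203, 57 and 77, and 27 and 188. Against quiet nuclei, non-mitochondrial totals gave 287 higher, and a minimum of 30 expected counts gave 127 lower. Against cycling neighbours, 499 were higher without set 4 and 455 with depth matching. Matched on depth, 468 of the 755 genes called higher than in all other nuclei and 416 of the 518 lower were called again. The cause of these shifts was not tested. All 81 named genes with a call against all other nuclei kept their direction in the 15 alternative settings. That was largely fixed in advance and supports little. A call already needs 1 direction in each barcode set, and the fold and count minimum settings cannot change a direction. Of the 81 calls, 73 held with depth matching. Against all other nuclei, medians of the MYC network, glycolysis, DNA methylation, G1, megakaryocyte and ribosomal protein lists changed sign between settings and carry no direction. Genes with under 10 expected counts, and differences between genotypes, are beyond what this depth and design can show.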

Other observations

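Single genes of further lists were called against all other nuclei, without a shift of the lists as a whole being shown. Bcl2, which encodes the founding survival protein of its family, held 239, 204, 192 and 188 CPM in sets 1 to 4 against 386, 630, 329 and 480 CPM, and was called lower (0.46-fold, 0.42 to 0.50). Its gated and other sets did not overlap. Of 11 measured BCL2 family genes, Pmaip1 was the other member called lower, from 2 gated UMIs and not without set 2 or without set 4, and Mcl1 at 176 against 116 CPM was not called. Among enzymes of DNA methylation, the methyltransferase Dnmt3a at 217 against 135 CPM and the dioxygenase Tet1 at 128 against 69.5 CPM were called higher, and Uhrf1, which guides maintenance methylation in S phase, was called lower at 32.3 against 68.0 CPM. Neither of the higher calls held with depth matching. Dnmt1 at 94.1 against 138 CPM, Dnmt3b, Tet2 and Tet3 were not called.

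Tbxas1, the thromboxane synthase gene, held 369, 548, 445 and 474 CPM in gated nuclei against 135, 214, 147 and 217 CPM in the others, 2.64-fold higher (2.47 to 2.81). In its list of retinoid, lipid and detoxification genes 4 of 12 measured members were called higher and none lower. Cytokine and growth factor receptors split: of 33 measured, 5 were called higher, among them Tie1, Tgfbr2, Bmpr2 and Eng, and Il7r, Csf1r and Epor, receptors of lymphoid, monocyte and erythroid cells, lower. Of 21 measured Wnt, Notch, TGF-beta and Hippo pathway genes, Tcf7l2, Smad6 and Skil were called higher and Lef1 and Ltbp1 lower, the last pair from 2 and 1 gated UMIs. Beside these list counts, 7.19% of all measured genes were called higher and 4.93% lower.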
